A study of Mus musculus with 12 samples.

Results

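Genes of retinoid and carotenoid metabolism were followed in RNA-seq libraries of whole mouse ileum. The 10 genes, Bco1, Rdh7, Isx, Rbp2, Lrat, Aldh1a1, Aldh1a2, Dhrs3, Rarb and Cyp26b1, were taken by name among the 54838 genes of the count table, through their Ensembl identifiers. The rule names the genes and uses no measured value, but the list was drawn up with earlier results of these data known. All 10 were found, and 9 passed the filter on low counts. Rarb did not and was left out of the tests.

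All mice were wild-type C57BL/6J. They were adult females by the methods given. They drank normal water or water with 25 mM ZnSO4 for 7 days, then received an injection of PBS or of 200 µg of the synthetic glucocorticoid dexamethasone (Dex), and the ileum was taken 2 h later. This gives 4 groups of 3 mice: water + PBS, ZnSO4 + PBS, water + Dex and ZnSO4 + Dex. The study asked whether zinc changes the transcriptional response of the ileum to glucocorticoids.

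Provitamin A carotenoids from food are cleaved to retinal in enterocytes, the absorptive cells of the gut lining. Retinal is reduced to retinol, which is bound by a cellular carrier, esterified and packed into chylomicrons, or it is oxidised to retinoic acid, the ligand of the nuclear receptors RAR. In the small intestine, retinoic acid induces the homeodomain repressor ISX, which lowers carotenoid cleavage and uptake, so that vitamin A status feeds back on its own absorption, and retinoic acid made by epithelial, stromal and dendritic cells imprints the gut homing of lymphocytes.

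The sequences upstream of the 4 genes that passed the test with ZnSO4 or with Dex are shown because the regulators at issue bind such letters: nuclear receptors recognise AGGTCA, the zinc sensor MTF1 recognises the metal response element core (TGCACNC or TGCGCNC), and the glucocorticoid receptor recognises AGAACA and, in full, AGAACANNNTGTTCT. They are RefSeq sequences of GRCm38.p6, written along each gene's own strand, and end before the start of the annotated gene. Capitals mark matches to AGGTCA or to the metal response element core, here all on the opposite strand, so that the reverse complement is read. Bco1 is shown at chr8:117095615-117095853 (+ strand), Rdh7 at chr10:127888818-127888983 (- strand), Lrat at chr3:82903975-82904224 (- strand) and Aldh1a1 at chr19:20492333-20492582 (+ strand).
Bco1: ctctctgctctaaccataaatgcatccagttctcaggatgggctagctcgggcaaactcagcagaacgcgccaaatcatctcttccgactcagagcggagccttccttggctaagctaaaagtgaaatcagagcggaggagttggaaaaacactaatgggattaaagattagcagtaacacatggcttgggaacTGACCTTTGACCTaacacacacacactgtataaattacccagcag
Rdh7: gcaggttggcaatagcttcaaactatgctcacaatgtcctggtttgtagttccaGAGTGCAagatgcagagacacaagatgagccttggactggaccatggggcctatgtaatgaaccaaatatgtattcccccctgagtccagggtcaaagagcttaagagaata
Lrat: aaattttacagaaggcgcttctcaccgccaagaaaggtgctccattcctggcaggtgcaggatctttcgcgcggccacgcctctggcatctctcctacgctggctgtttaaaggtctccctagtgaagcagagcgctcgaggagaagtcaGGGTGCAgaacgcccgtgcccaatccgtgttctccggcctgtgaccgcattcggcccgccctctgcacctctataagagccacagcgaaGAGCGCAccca
Aldh1a1: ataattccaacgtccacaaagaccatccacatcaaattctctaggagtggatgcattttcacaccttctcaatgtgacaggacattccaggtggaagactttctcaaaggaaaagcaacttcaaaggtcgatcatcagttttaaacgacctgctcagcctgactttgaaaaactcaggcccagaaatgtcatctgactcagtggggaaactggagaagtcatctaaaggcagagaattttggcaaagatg

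The capitals in Bco1 are a pair of AGGTCA matches with 1 base between them, starting at -56 and -49 from the RefSeq start site. This direct repeat, AGGTCANAGGTCA, was found in 13 of 32851 RefSeq windows of 300 bases (250 before to 50 after a start site, both strands), or 0.0396%, and in no other of the 14 windows of the 10 genes. Single AGGTCA matches, held by 16.3% of all windows, were also found in Rbp2 at -58 and in a second window of Rdh7 at -105. The metal response element core, held by 25.7% of all windows, was found in Rdh7 at -196, in Lrat at -100 and -11, and in windows of Aldh1a2, Dhrs3, Rarb and Cyp26b1. AGAACA, held by 19% of all windows, was found in Lrat at -73, in Rbp2 at -242 and in Dhrs3 at -202, and none of the 10 genes had the full glucocorticoid element, which 3 of the 32851 windows hold. In the windows of Isx and Aldh1a1 none of these letters were found, and TAATTA or TAATTG, a core of homeodomain sites held by 12.4% of all windows, was in none of the 14. Such matches describe the letters only and show no binding.

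Total counts per library lay between 10760132 and 11827487. The enterocyte markers Alpi, Vil1, Fabp2, Apoa1, Sis, Krt20 and Anpep were all tested, and none of the 7 passed the test in any comparison of ZnSO4 with water or of Dex with PBS. Distal markers were high (Fabp6 at 40670 to 88620 normalised counts) and the proximal markers Gata4 and Lct low (at most 62.2 and 63.7), but the proximal marker Apoa4 reached 1713. The 5 proximal markers summed to 733 to 1796 normalised counts with water + PBS, 96 to 966 with ZnSO4 + PBS, 1142 to 1886 with water + Dex and 171 to 622 with ZnSO4 + Dex. ZnSO4 + Dex mice lay below water + Dex mice without overlap, and 0 of the 4 tested passed with ZnSO4 or with Dex. Apoa4 made up most of the sums in water + Dex mice (1090 to 1713, beside 65.3 to 548.5 in ZnSO4 + Dex mice). Of its exon bases, 69.8% overlap genes on the opposite strand. Gata4 and Lct, with few reads, were also lower without overlap, whereas Fabp1 and Onecut2 overlapped between these groups. The summed liver markers ran from 66 to 4485, highest in water + Dex replicate 3 and ZnSO4 + Dex replicate 2 (2700), and the summed B cell markers from 123 to 6605, highest in water + PBS replicate 2. No marker of these lists passed with ZnSO4 or with Dex, and the part of these cells in the values below was not tested. The library ZnSO4 + Dex replicate 2 stood apart: its summed enterocyte markers were 118815 normalised counts, where the other 11 libraries had 209672 to 296720. Since whole tissue was sequenced, fewer cells of a type and less RNA per cell cannot be told apart in any value given here. The treatments were visible in known targets: 7 of 7 glucocorticoid-induced genes rose with Dex in both water and ZnSO4 mice (median LFC 2.86 and 3.03), and of 4 zinc-regulated genes Mt1, Mt2 and Slc30a2 rose and Slc39a4 fell with ZnSO4 in both PBS and Dex mice.

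Levels of different genes were compared as RPKM (CPM, the share of the library's reads, divided by the kilobases of exon). In water + PBS mice, Rbp2 was highest (135 ± 18.9, mean ± SD of 3 mice), followed by Isx (82.7 ± 3.13), Aldh1a1 (43.0 ± 5.73), Dhrs3 (12.6 ± 2.05) and Aldh1a2 (6.75 ± 0.991). Bco1 (3.45 ± 0.176), Lrat (3.27 ± 0.599) and Rdh7 (2.81 ± 0.773) followed and did not differ beyond their spread. Cyp26b1 (0.861 ± 0.283) and Rarb (0.1145 ± 0.0315) were lowest. In ZnSO4 + Dex mice this order was changed. Rbp2 (238 ± 75.3) was still highest, Aldh1a1 (85.9 ± 17.4) and Isx (77.1 ± 12.7) overlapped, and Bco1 (38.3 ± 12.6) and Rdh7 (19.7 ± 3.69) stood above Dhrs3 (11.78 ± 1.40), Aldh1a2 (8.23 ± 2.11) and Lrat (4.64 ± 0.329).

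**Figure D1:**
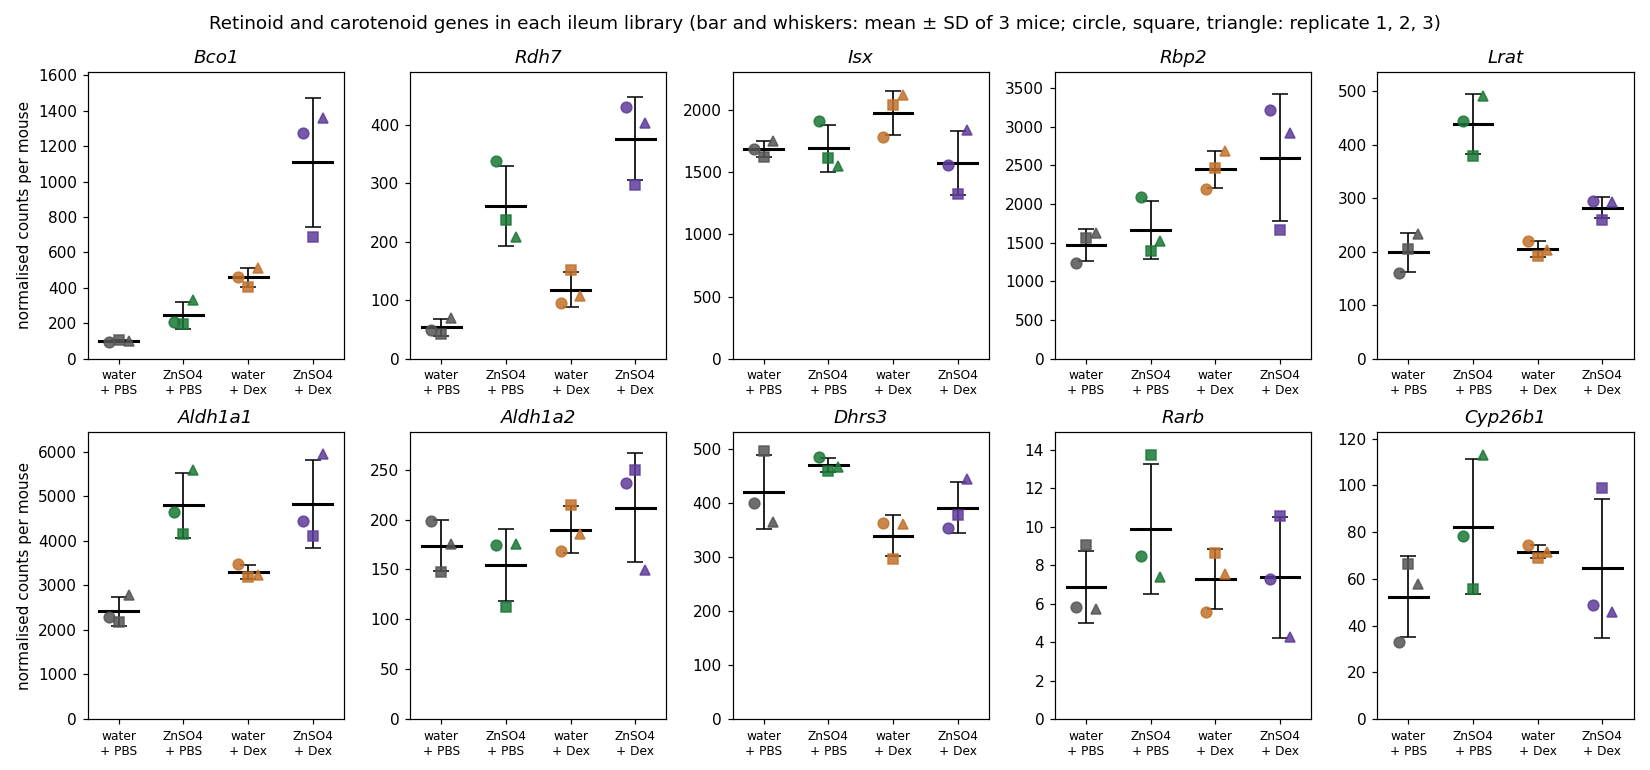
Normalised counts (vertical axes, each starting at 0) of the 10 genes in the 12 ileum libraries, by group; points are mice, lines and whiskers are the mean and SD of 3 mice. Bco1 lies lowest in water + PBS (95.3 to 105.4) and highest in ZnSO4 + Dex (688.8 to 1359), whereas Isx covers 1322 to 2117 over all groups.

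Bco1 (ENSMUSG00000031845, chr8:117095854-117133720), which encodes the dioxygenase that cleaves beta-carotene into retinal, was upregulated by both treatments. Water + PBS mice had 95.3, 105.4 and 98.8 normalised counts (99.8 ± 5.09) and ZnSO4 + PBS mice 206.5, 196.8 and 333.4 (245.6 ± 76.3). Water + Dex mice had 459.3, 405 and 512.2 (458.8 ± 53.6) and ZnSO4 + Dex mice 1274, 688.8 and 1359 (1108 ± 365). None of the 4 groups overlapped another. With ZnSO4, Bco1 rose 2.46-fold in PBS mice (LFC, the log2 fold change, 1.30, SE 0.27, adjusted p = 0.0201, edgeR's quasi-likelihood test as throughout) and by an LFC of 1.27 in Dex mice (SE 0.25, adjusted p = 0.0141). The LFC with Dex was 2.20 in water mice (SE 0.27, adjusted p = 0.000287) and 2.17 in ZnSO4 mice (SE 0.25, adjusted p = 0.00018). ZnSO4 + Dex mice had 11.1-fold the level of water + PBS mice (LFC 3.47, SE 0.27, adjusted p = 8.32e-06). The interaction of the treatments had an LFC of -0.03 with a 95% interval of -0.79 to 0.74.

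Both ZnSO4 calls of Bco1 depended on single libraries. Leaving out water + PBS replicate 1, 2 or 3 gave adjusted p of 0.0814, 0.0549 and 0.0589 in PBS mice, and leaving out ZnSO4 + PBS replicate 3 gave 0.0754. In Dex mice it was 0.0616 and 0.0681 without water + Dex replicate 1 and 2, and 0.0556 without ZnSO4 + Dex replicate 1. The lowest of the ZnSO4 + Dex mice was replicate 2, the library with low enterocyte markers, and without it the LFC in Dex mice was 1.52 (adjusted p = 0.00268). The part of the enterocyte content in this value was not tested.

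Isx (ENSMUSG00000031621, chr8:74873173-74893506) encodes the homeodomain repressor of Bco1, and it did not pass the test in any comparison. Its levels ranged from 1624 to 1752 normalised counts with water + PBS, from 1546 to 1908 in ZnSO4 + PBS mice, from 1781 to 2117 in water + Dex mice and from 1322 to 1838 in ZnSO4 + Dex mice. In water mice all with Dex were above all with PBS, the only comparison of ZnSO4 or Dex in which the groups did not overlap (LFC 0.23, 95% interval -0.03 to 0.49, adjusted p = 0.292). With ZnSO4 the LFC of Isx was 0.00 in PBS mice (95% interval -0.26 to 0.27, adjusted p = 0.994) and -0.33 in Dex mice (95% interval -0.60 to -0.07, adjusted p = 0.154). The same mice that had 11.1-fold more Bco1 had 0.932-fold the Isx of water + PBS mice.

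Rbp2 (ENSMUSG00000032454, chr9:98486115-98509781), the abundant retinol carrier of enterocytes, had higher values in Dex mice, which passed the test only for the combined treatment. Its counts were 1241, 1565 and 1625 in water + PBS mice (1477 ± 206) and 2091, 1393 and 1517 in ZnSO4 + PBS mice (1667 ± 373). Water + Dex mice had 2200, 2461 and 2684 (2448 ± 243) and ZnSO4 + Dex mice 3216, 1664 and 2921 (2600 ± 824). The water + Dex mice lay above all PBS mice, and of the ZnSO4 + Dex mice only replicate 2 lay among the values of PBS mice. With Dex the LFC was 0.73 in water mice (SE 0.23, adjusted p = 0.0662) and 0.64 in ZnSO4 mice (SE 0.22, adjusted p = 0.0865), and ZnSO4 + Dex against water + PBS gave 0.82 (SE 0.23, adjusted p = 0.0223). Leaving out any 1 library gave adjusted p with Dex of 0.0104 to 0.204 in water mice and 0.00583 to 0.286 in ZnSO4 mice. In each comparison 1 of the 12 fits passed, that without ZnSO4 + Dex replicate 2, which was low in enterocyte markers. This library is not among the water mice and enters their comparison only through the shared fit, and the LFC there stayed at 0.73. The part of the enterocyte content in these values was not tested. With ZnSO4 the LFC was 0.17 in PBS mice (95% interval -0.32 to 0.67) and 0.09 in Dex mice (95% interval -0.40 to 0.58).

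Lrat (ENSMUSG00000028003, chr3:82892579-82903973), which encodes the enzyme that esterifies retinol for storage and export, rose with ZnSO4 in PBS mice and fell with Dex in ZnSO4 mice. Normalised counts of Lrat were 160.5, 204.7 and 232.8 in water + PBS mice (199.3 ± 36.4) and 444.1, 379.8 and 490.9 in ZnSO4 + PBS mice (438.3 ± 55.8). They were 220.8, 191.2 and 204.2 in water + Dex mice (205.4 ± 14.8) and 294.5, 259.4 and 293.7 in ZnSO4 + Dex mice (282.5 ± 20.0). The ZnSO4 + PBS mice were above all other mice, the ZnSO4 + Dex mice came next, and the groups that drank water overlapped. With ZnSO4 the level rose 2.20-fold in PBS mice (LFC 1.14, SE 0.14, adjusted p = 0.00141). In Dex mice it was 1.38-fold higher with ZnSO4, without passing the test (LFC 0.46, SE 0.14, adjusted p = 0.0974). The LFC of Lrat with Dex was -0.63 in ZnSO4 mice (SE 0.14, adjusted p = 0.00989) and 0.04 in water mice (95% interval -0.27 to 0.35, adjusted p = 0.898). The difference between the effects of Dex, tested as the interaction, had an LFC of -0.68 (SE 0.20, unadjusted p = 0.0054) and an adjusted p of 0.952 over all genes, so that the effects of Dex were not shown to differ. Leaving out any 1 library kept the adjusted p of the ZnSO4 effect in PBS mice between 0.00151 and 0.00852 and that of the Dex effect in ZnSO4 mice between 0.00353 and 0.0421.

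Rdh7 (ENSMUSG00000040134, chr10:127884028-127888817) encodes a short-chain dehydrogenase that can oxidise retinol. It rose most with ZnSO4 among the 9 tested genes, in PBS as in Dex mice. In water + PBS mice it had 48.6, 42.1 and 70.3 normalised counts (53.7 ± 14.8), and in ZnSO4 + PBS mice 337.5, 237.9 and 208.4 (261.3 ± 67.7). In water + Dex mice it had 95.9, 152.3 and 107 (118.4 ± 29.9), and in ZnSO4 + Dex mice 430.3, 296.9 and 402.6 (376.6 ± 70.4). Mice with ZnSO4 were all above mice with water, and in ZnSO4 mice the Dex and PBS groups overlapped. The rise with ZnSO4 was 4.85-fold in PBS mice (LFC 2.28, SE 0.26, adjusted p = 0.000983) and 3.18-fold in Dex mice (LFC 1.67, SE 0.25, adjusted p = 0.00381). With Dex it rose in water mice (LFC 1.14, SE 0.26, adjusted p = 0.017), whereas in ZnSO4 mice the LFC was 0.53 (SE 0.24, adjusted p = 0.184). The Dex call was lost without water + PBS replicate 1 (adjusted p = 0.07), water + PBS replicate 2 (0.0692) or water + Dex replicate 2 (0.082). Of the 31-base stretches of Rdh7, 20.3% also occur in other genes. The gene with the most matches, counted over transcripts, was its neighbour in sequence Hsd17b6. Reads with more than 1 position were not counted.

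Dhrs3 (ENSMUSG00000066026, chr4:144892827-144928209), which reduces retinal back to retinol, ranged from 364.9 to 496.7 normalised counts with water + PBS, 460.3 to 486.5 in ZnSO4 + PBS mice, 295.9 to 363.5 in water + Dex mice and 354.6 to 444.3 in ZnSO4 + Dex mice. Mice with Dex were below mice with PBS without overlap under either drink, although neither difference passed the test (LFC -0.31 in water mice, adjusted p = 0.179, and -0.27 in ZnSO4 mice, adjusted p = 0.213). ZnSO4 + PBS mice were 1.39-fold above water + Dex mice (LFC 0.47, SE 0.13, adjusted p = 0.0252).

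Aldh1a1 (ENSMUSG00000053279, chr19:20492715-20643465), a retinal dehydrogenase that makes retinoic acid, rose with ZnSO4 in PBS mice. Water + PBS mice had 2292, 2176 and 2782 normalised counts (2417 ± 322) and ZnSO4 + PBS mice 4637, 4150 and 5593 (4793 ± 734). Water + Dex mice had 3490, 3191 and 3233 (3305 ± 162) and ZnSO4 + Dex mice 4444, 4098 and 5940 (4827 ± 979). The ZnSO4 groups overlapped each other and lay above the water groups, and water + Dex lay between. The rise with ZnSO4 was 1.98-fold in PBS mice (LFC 0.99, SE 0.15, adjusted p = 0.0053), and in Dex mice the LFC was 0.55 (SE 0.15, adjusted p = 0.0701). With Dex the LFC was 0.45 in water mice (SE 0.15, adjusted p = 0.0929) and 0.01 in ZnSO4 mice (95% interval -0.32 to 0.34). Of the 31-base stretches of Aldh1a1, 5.70% are not unique. The gene with the most matches to them, counted over transcripts, was its paralogue Aldh1a7.

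Aldh1a2 (ENSMUSG00000013584, chr9:71215789-71296243), a retinal dehydrogenase known from stromal and dendritic cells, did not pass the test in any comparison. It ranged from 147.5 to 198.5 normalised counts with water + PBS, 112.6 to 176 in ZnSO4 + PBS mice, 168.4 to 214.9 in water + Dex mice and 149.5 to 249.8 in ZnSO4 + Dex mice. The LFC was -0.17 with ZnSO4 in PBS mice (95% interval -0.65 to 0.31) and 0.13 with Dex in water mice (95% interval -0.35 to 0.61). With Dex in ZnSO4 mice it was 0.46 (95% interval -0.02 to 0.94, adjusted p = 0.212).

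Cyp26b1 (ENSMUSG00000063415, chr6:84571414-84593908), which breaks down retinoic acid, had 33.1 to 66.2 normalised counts with water + PBS, 55.8 to 113 in ZnSO4 + PBS mice, 69.1 to 74.7 in water + Dex mice and 45.9 to 98.96 in ZnSO4 + Dex mice. Its LFC with ZnSO4 was 0.65 in PBS mice (95% interval -0.10 to 1.40, adjusted p = 0.327), the widest interval of the 9 genes in that comparison. The highest values of Cyp26b1, 113 and 98.96, were in ZnSO4 + PBS replicate 3 and ZnSO4 + Dex replicate 2. The same libraries had the highest summed smooth muscle markers (30437 and 30060 normalised counts over 5 genes, at most 23820 elsewhere) and the highest summed stromal markers (19747 and 18754 over 6 genes, at most 14640 elsewhere), whose part in these values was not tested. None of these 11 markers passed the test in the 4 comparisons of ZnSO4 with water or of Dex with PBS.

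Rarb (ENSMUSG00000017491, chr14:16430839-16819156), a retinoic acid receptor that is itself a target of retinoic acid, had 4 to 15 reads per library. The counts were 6, 9 and 6 in water + PBS mice, 9, 15 and 8 in ZnSO4 + PBS mice, 5, 8 and 7 in water + Dex mice and 7, 11 and 4 in ZnSO4 + Dex mice. The groups overlapped, and at this depth a difference was not detectable. In addition, 38.4% of its exon bases overlap exons of Top2b and Gm48162 on the opposite strand.

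**Figure D2:**
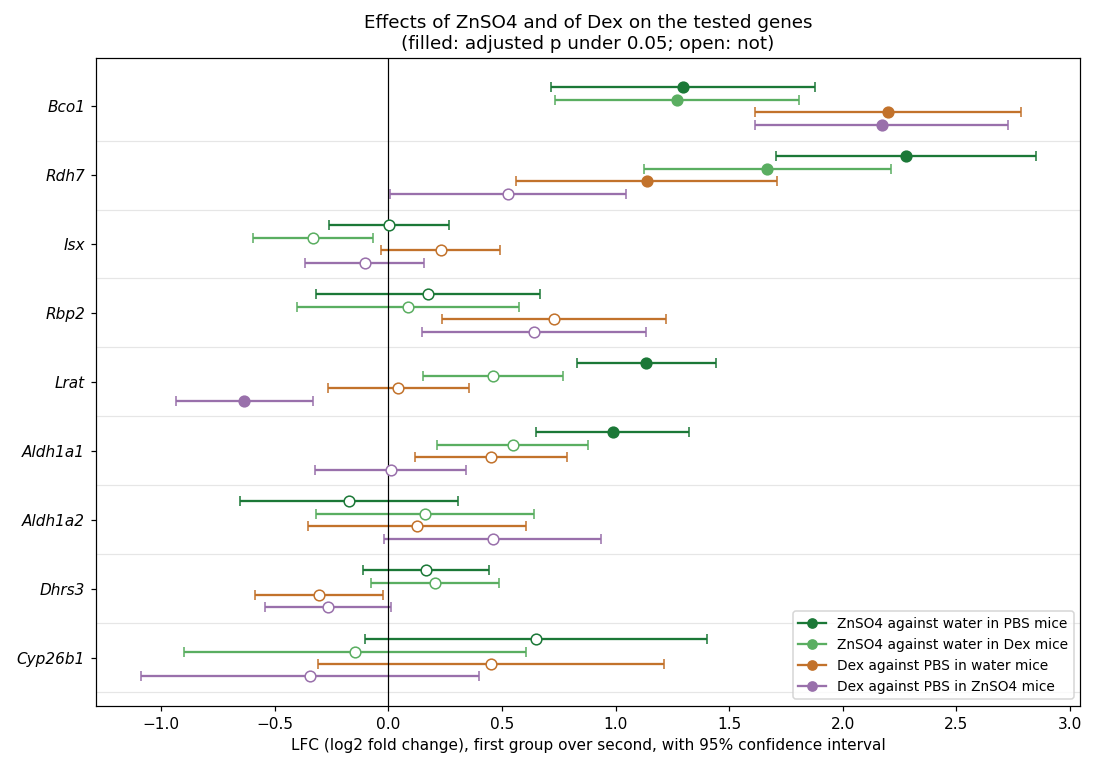
LFC (horizontal axis, log2 scale) with 95% confidence interval for the 9 tested genes, with 4 comparisons per gene; filled points passed the test at an adjusted p under 0.05. Bco1 is filled in all 4 comparisons, Rdh7 in 3, Lrat in 2 (1 of them below 0) and Aldh1a1 in 1, and the other 5 genes in none.

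Counted over the genes, ZnSO4 in PBS mice raised 4 of 9 (Bco1, Rdh7, Lrat and Aldh1a1) and lowered 0, where 4.66% of all 15938 genes tested passed (2.11% higher and 2.54% lower). The median LFC of the 9 genes was 0.65, beside -0.01 over all genes. In Dex mice, ZnSO4 raised 2 of 9 (Bco1 and Rdh7), where 4.37% of all genes passed (1.83% higher and 2.54% lower), with a median LFC of 0.21 beside 0.01. Dex raised 2 of 9 in water mice (Bco1 and Rdh7), where 9.93% of all genes passed (5.41% higher and 4.51% lower), with a median LFC of 0.45 beside -0.01. In ZnSO4 mice, Dex raised Bco1 and lowered Lrat, 2 of 9 where 13.7% of all genes passed (6.65% higher and 7.08% lower), with a median LFC of 0.01 beside 0.01. With 9 genes these counts are small, and the comparisons share groups of mice. The list was also drawn up with earlier results of these data known, so the counts beside these shares are no test of the list. Some markers of other cells moved with ZnSO4 as well. In PBS mice 1 of 5 goblet cell markers (Muc2) was higher, with the summed list at 136106 to 137208 normalised counts with water and 151665 to 180096 with ZnSO4, and 1 of 5 T cell markers (Cd8a) was lower, with sums of 628 to 1134 and 303 to 657. In Dex mice these were Muc2 again and 2 of 5 T cell markers (Cd8a and Cd3e). With Dex, the endothelial marker Lyve1 was higher (LFC 1.54 in water and 1.26 in ZnSO4 mice, 1 of 5), with sums of 1103 to 1512 and 1599 to 1681 in water mice and of 1340 to 1461 and 1622 to 1714 in ZnSO4 mice. In water mice Lyve1 itself went from 248 to 270.4 normalised counts with PBS to 703.5 to 814.7 with Dex. The median LFC of the 5 endothelial markers was -0.11 in water and 0.06 in ZnSO4 mice, so the list did not rise as a whole. Of 5 distal enterocyte markers Slc10a2 was higher with Dex under either drink (LFC 0.92 and 1.16) and Osr2 lower in ZnSO4 mice (LFC -0.50), and the summed list was 81167 to 95958 and 98162 to 118335 in water mice and 62295 to 111311 and 64433 to 103315 in ZnSO4 mice. Of 7 dendritic cell and macrophage markers Xcr1 was lower under either drink (LFC -1.19 and -0.9986) and C1qa higher in ZnSO4 mice (LFC 0.43), with sums of 1847 to 2514 and 2024 to 2454 in water mice and of 1581 to 1928 and 1967 to 2206 in ZnSO4 mice. The part of these cells in the values of the retinoid genes was not tested.

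ZnSO4 + Dex mice had higher levels of 5 of 9 genes than water + PBS mice, where 23.3% of all genes passed (11.5% higher and 11.9% lower). Besides Bco1 and Rbp2 these were Rdh7 (LFC 2.81, SE 0.26, adjusted p = 2.7e-05), Aldh1a1 (LFC 0.998, SE 0.15, adjusted p = 0.000781) and Lrat (LFC 0.50, SE 0.14, adjusted p = 0.0237). Markers of other cells moved in this comparison too: 4 of 5 T cell markers (Cd3e, Cd3g, Cd8a and Trac), 1 of 7 enterocyte markers (Krt20), 1 of 4 tested proximal markers (Gata4) and Xcr1 were lower, and 3 of 5 goblet cell markers (Muc2, Tff3 and Zg16), 1 of 5 smooth muscle markers (Myh11), 1 of 5 liver markers (Ttr), Slc10a2 and Lyve1 were higher. Their part in these values was not tested. ZnSO4 alone and Dex alone were also set against each other, where 17.6% of all genes differed (8.58% higher and 9.03% lower). Rdh7 (LFC 1.14, adjusted p = 0.00782), Lrat (LFC 1.09, adjusted p = 0.000285), Aldh1a1 (LFC 0.54, adjusted p = 0.0313) and Dhrs3 were higher in ZnSO4 + PBS than in water + Dex mice, and Bco1 was lower (LFC -0.90, SE 0.22, adjusted p = 0.028). Of the cell markers, 2 of 5 distal enterocyte, 1 of 5 T cell, 1 of 7 dendritic cell and macrophage, 1 of 5 endothelial and 1 of 5 Paneth cell markers were lower. Higher were 1 of 5 distal enterocyte, 1 of 6 stromal and 1 of 5 goblet cell markers. The part of these cells was not tested. In the test of the interaction, edgeR called 0% of all genes at an adjusted p under 0.05, with 4.98% (794) at an unadjusted p under 0.05. Of the 9 genes, Lrat had such an unadjusted p, and DESeq2 called 0 of the 9 at an adjusted p under 0.05.

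**Figure D3:**
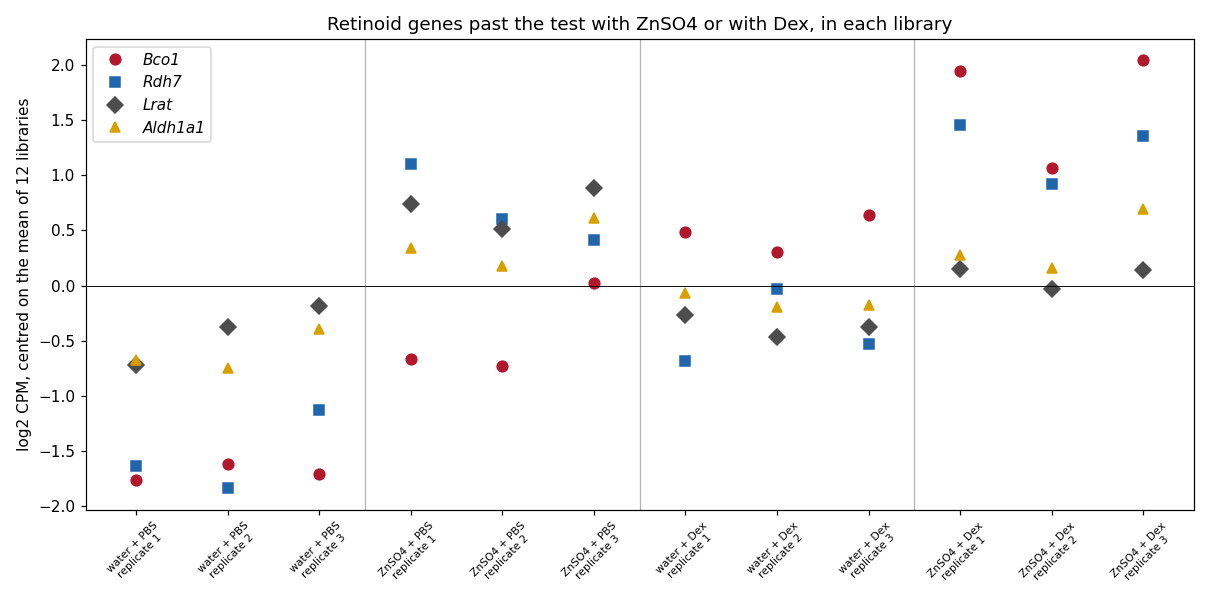
Log2 CPM of the 4 genes that passed a test with ZnSO4 or Dex, centred on each gene's mean over 12 libraries (vertical axis), for each library (horizontal axis, grouped by treatment). Bco1 is lowest in water + PBS and highest in ZnSO4 + Dex, whereas Lrat is highest in ZnSO4 + PBS.

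The plot of centred levels shows that Lrat and Aldh1a1 ran closest to each other, with a root mean square difference of 0.295 log2 units over the 12 libraries. Between Bco1 and Lrat it was 1.27, and between Rdh7 and Aldh1a1 0.729. The same distance was computed to 14970 genes with a mean CPM of at least 1, as a description. Nearest to Bco1 were Edn1 (0.314), Retreg1 (0.340) and Hpgd (0.363), which encode endothelin 1, a receptor of endoplasmic reticulum turnover and a prostaglandin-inactivating dehydrogenase. With Dex in water mice their LFCs were 2.27 (Edn1), 1.79 (Retreg1) and 2.09 (Hpgd), beside 2.20 of Bco1. Nearest to Rdh7 were the zinc transporter gene Slc30a2 (0.427), Frmd3 (0.512) and Sorcs3 (0.538), and the LFC of Slc30a2 with ZnSO4 was 1.63 in PBS mice and 1.58 in Dex mice, beside 2.28 and 1.67 of Rdh7. Nearest to Lrat were Vat1 (0.170), Cndp1 (0.212) and Mmp15 (0.216). The LFC of Vat1 was 0.87 with ZnSO4 in PBS mice and -0.62 with Dex in ZnSO4 mice, beside 1.14 and -0.63 of Lrat. No test is given for these genes, since they were chosen for their pattern. Nearest to Aldh1a1 were Osbpl1a (0.133), Fhl1 (0.153) and Sema3c (0.175). These distances are to be read beside the spread of each gene itself over the libraries, which was 1.27 for Bco1, 1.11 for Rdh7, 0.479 for Lrat and 0.444 for Aldh1a1.

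Of 57 further genes of the retinoid pathway, 42 were tested. ZnSO4 in PBS mice changed 0 of the 42 by edgeR, where 4.66% of all genes passed, and 7 had an unadjusted p under 0.05, as had 19.8% of all genes. The median LFC was 0.13. The highest LFC was 1.16, of Rdh16f2, which had few reads (at most 28 per library). It had 6.81 to 11.4 normalised counts with water + PBS and 18.3 to 24.5 with ZnSO4 + PBS. In Dex mice it had 3.24 to 20.5 with water and 22.8 to 26.9 with ZnSO4. Neither difference passed the edgeR test, although the groups did not overlap. The study's own DESeq2 test in these mice lists this Ensembl identifier, under another symbol, as raised by ZnSO4 at an FDR under 0.05. In Dex mice ZnSO4 lowered 1, where 2.54% of all genes were lower. Dex changed 7 of 42 in water mice (4 higher and 3 lower), where 9.93% of all genes passed (5.41% higher and 4.51% lower), and 8 of 42 in ZnSO4 mice (4 higher and 4 lower), where 13.7% passed (6.65% higher and 7.08% lower). The median LFCs were 0.09 and 0.13. The changes lay in the enzymes that interconvert retinol and retinal, in the receptors and in a hydrolase. None of the 3 genes tested for carotenoid uptake and cleavage, the 7 for retinoid binding and transport or the 3 for retinal oxidation passed in these comparisons, and Cyp26a1 and Cyp26c1, which break down retinoic acid as Cyp26b1 does, were too low to be tested.

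Among the interconverting enzymes, Adh1, a retinol-oxidising alcohol dehydrogenase, had 186.2 to 201.7 normalised counts in water mice with PBS and 742.5 to 842.8 in those with Dex (LFC 2.05, SE 0.16, adjusted p = 1.06e-05). In ZnSO4 mice Adh1 rose from 180.6 to 248 with PBS to 475.6 to 721.9 with Dex (LFC 1.48, SE 0.15, adjusted p = 8.06e-05). Adh4, of the same family, rose with Dex by LFCs of 3.01 and 2.46 in water and ZnSO4 mice, on only 1 to 33 reads per library (adjusted p = 0.0142 and 0.0204). Akr1b7, an aldo-keto reductase, rose by LFCs of 2.78 and 2.80 (adjusted p = 0.000123 and 9.4e-05), and 27.2% of its exon bases overlap Gm13857 on the opposite strand. Rdh10, the retinol dehydrogenase of retinoic acid synthesis, fell with Dex from 375.3 to 426.4 normalised counts with PBS to 218.3 to 264.2 in water mice (LFC -0.73, SE 0.10, adjusted p = 0.000808) and by an LFC of -0.47 in ZnSO4 mice (SE 0.10, adjusted p = 0.00958).

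Smaller changes were seen in Rdh11, a retinal reductase, which rose with Dex in water mice (LFC 0.40, adjusted p = 0.0264), and in Adh5, an alcohol dehydrogenase, which rose with Dex in ZnSO4 mice (LFC 0.29, adjusted p = 0.0117). Dhrs9, which can oxidise retinol, was the gene that ZnSO4 lowered in Dex mice, from 94.0 to 119.9 normalised counts with water to 34.6 to 70.5 with ZnSO4 (LFC -1.23, SE 0.28, adjusted p = 0.0288). This call was lost without water + Dex replicate 1 or 2 or ZnSO4 + Dex replicate 2 or 3. Lipe, a hydrolase of triglycerides and retinyl esters, fell with Dex in ZnSO4 mice (LFC -1.12, SE 0.19, adjusted p = 0.00195), with 15.6% of its exon bases overlapping a gene on the opposite strand.

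The retinoic acid receptors Rara and Rarg fell with Dex under either drink. Rara had 351.2 to 422.8 normalised counts in water mice with PBS and 214.1 to 228 in those with Dex (LFC -0.85, SE 0.11, adjusted p = 0.000576), and 398.3 to 484.1 in ZnSO4 + PBS mice and 207.5 to 252 in ZnSO4 + Dex mice (LFC -0.96, SE 0.11, adjusted p = 0.000183). Rarg had 84.6 to 111.4 and 38.9 to 47.5 normalised counts in water mice (LFC -1.22, SE 0.15, adjusted p = 0.000355), and its LFC was -1.19 in ZnSO4 mice (SE 0.15, adjusted p = 0.000275). No PBS mouse overlapped a Dex mouse in either gene. Their partner receptors Rxra and Rxrb did not pass the test in any of the 4 comparisons.

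**Figure D4:**
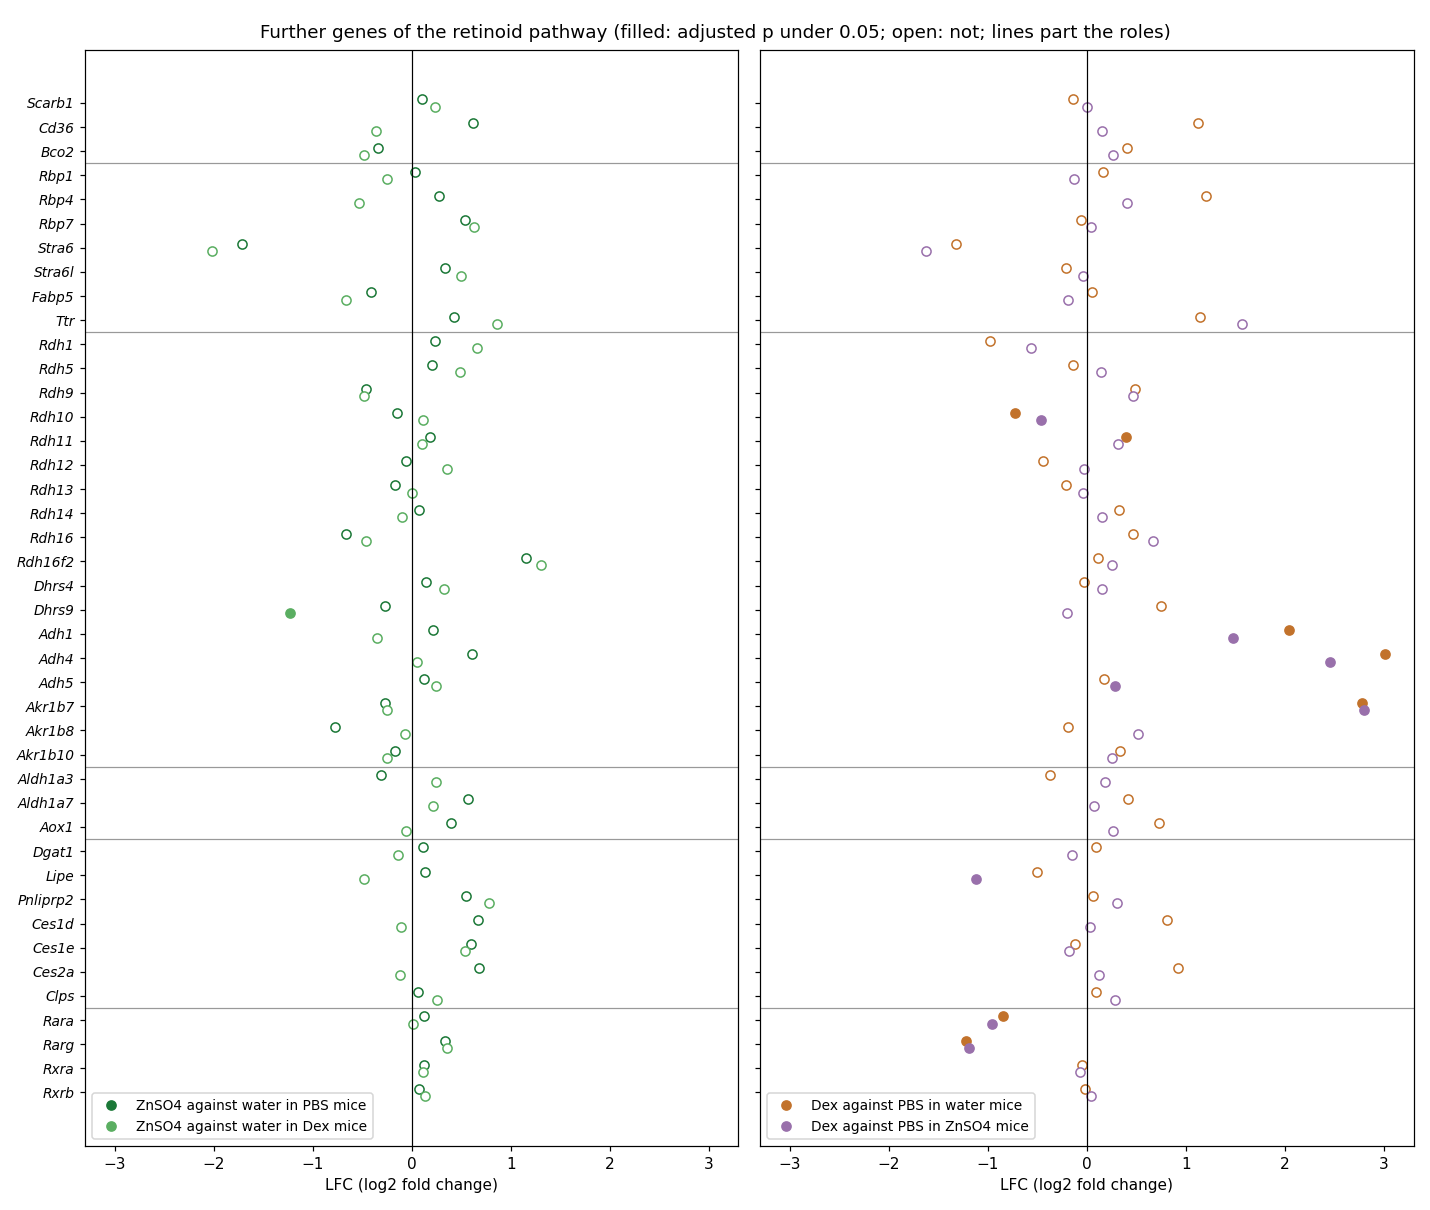
LFC (horizontal axes, log2 scale) of the tested genes of the further retinoid pathway, with ZnSO4 on the left and with Dex on the right; grey lines part the groups of genes by role and filled points passed the test at an adjusted p under 0.05. With ZnSO4 1 point is filled (Dhrs9, LFC -1.23), and with Dex the filled points reach from -1.22 (Rarg) to 3.01 (Adh4).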

How the data were processed

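RNA was taken from the ileum of 12 mice, 3 in each of 4 groups given by the sample labels. Libraries were stranded and read from a single end. The authors aligned reads to mm10 (HISAT2 2.0.4) and assigned them to genes with featureCounts, without multimapping reads. The deposited table holds raw counts per gene. The annotation release and strand setting are not given in the sources used here.

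Symbols and positions came from the GENCODE annotation of GRCm38 (54809 of 54838 identifiers matched) and upstream sequences from RefSeq (GRCm38.p6), where all 10 genes had a window. The analysis used R 4.3.3. Genes were filtered with filterByExpr of edgeR 4.0.16 (minimum count 10), which left 15938 genes with 99.83% of all counts. After TMM scaling, the quasi-likelihood test was run with group means over the 12 libraries, so all groups shared 1 estimate of the spread. P-values were adjusted by Benjamini-Hochberg over all genes tested, and a gene was called at an adjusted p under 0.05. The SE of an LFC comes from its F statistic. Normalised counts are scaled to the mean effective library size, 11377723 reads. Total counts lay between 10760132 and 11827487, which limits precision for genes with few reads. Log2 CPM used a prior count of 2.

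The 10 genes, the retinoid pathway list and the marker lists were chosen with earlier results of these data known. Named were the 10 genes, pathway genes called in at least 1 comparison of ZnSO4 or of Dex, and the 3 genes nearest in pattern to each called gene. Rdh16f2 was named as well, as the pathway gene with the highest LFC for ZnSO4 in PBS mice. Whether mice shared a cage or a day of sampling was not stated in the labels. Permutation tests were not used, as their smallest p at this group size is 0.1.

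Alternatives were DESeq2 1.42.0, RLE or upper-quartile factors, other filters on low counts, a block for the replicate number, a fit of only the groups compared, an LFC above 0.8 as a further cut-off, unadjusted p, and leaving out each library. On simulated data at the 4 comparisons, 53% to 74% of 2-fold and 76% to 85% of 3-fold changes were recovered. No libraries of a group had the similarity of a library sequenced again (chi-square per degree of freedom 7.63 to 41.0).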

Additional observations from a re-analysis of the deposited data

How the results depend on the processing

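Under 7 alternatives of tool, scaling, filter, block and samples, no call of the 9 genes with ZnSO4 or Dex was lost. Calls were gained for Rbp2 with Dex in water mice (adjusted p = 0.0292 with all genes of at least 1 count, 0.00945 with only the groups compared and 0.0134 with DESeq2) and in ZnSO4 mice (0.0353 with DESeq2), and for Aldh1a1 with Dex in water mice (0.0297 with only the groups compared and 0.0388 with DESeq2) and with ZnSO4 in Dex mice (0.0471 with upper-quartile factors, 0.0497 with all genes of at least 1 count and 0.0129 with DESeq2). The cause was not tested. The LFC of Aldh1a1 with Dex in ZnSO4 mice changed sign, to -0.0028 with all genes of at least 1 count and to -0.0045 with only the groups compared.

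The number of the 10 genes called with Dex in water mice was 2 and became 4 with only the groups compared, 4 with DESeq2 and 5 at an unadjusted p (22.7% of all genes). With ZnSO4 in Dex mice it was 2 and became 5 at an unadjusted p (19.1% of all genes). With Dex in ZnSO4 mice it was 2 and became 1 with the LFC cut-off (5.81% of all genes) and 4 at an unadjusted p (26.3% of all genes). For ZnSO4 + Dex against water + PBS it was 5 and became 3 with only the groups compared. For ZnSO4 + PBS against water + Dex it was 5 and became 3 with the LFC cut-off (7.32% of all genes). For the interaction it was 0 and became 1 at an unadjusted p (4.98% of all genes). The pathway list, at an unadjusted p, had 7 (ZnSO4, PBS mice), 18 (Dex, water mice), 11 (ZnSO4, Dex mice) and 19 genes (ZnSO4 + Dex against water + PBS), where 19.8%, 22.7%, 19.1% and 36% of all genes passed. For the last comparison the LFC cut-off gave 7, where 9.66% of all genes passed it. With upper-quartile factors 2 were called with ZnSO4 in Dex mice.

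Leaving out 1 library gave, for the 9 genes, 3 to 4 calls with ZnSO4 in PBS mice and 2 to 3 with Dex in ZnSO4 mice. With Dex in water mice there were 1 to 3, with 1 call without water + PBS replicate 1 or 2 or water + Dex replicate 2. With ZnSO4 in Dex mice there were 1 to 3, with 1 call without water + Dex replicate 1 or 2 or ZnSO4 + Dex replicate 1. For ZnSO4 + Dex against water + PBS there were 3 to 5, with 3 calls without water + PBS replicate 1 or ZnSO4 + Dex replicate 1 or 3. For ZnSO4 + PBS against water + Dex there were 2 to 6, with 2 calls without ZnSO4 + PBS replicate 1 and 3 without any other mouse of these groups. The pathway list had 0 to 1 calls with ZnSO4 in PBS mice (1 without water + Dex replicate 3), 5 to 8 with Dex in water mice, 0 to 2 with ZnSO4 in Dex mice (0 without water + Dex replicate 1 or 2 or ZnSO4 + Dex replicate 2 or 3, 2 without water + Dex replicate 3), 6 to 9 with Dex in ZnSO4 mice, 10 to 12 for ZnSO4 + Dex against water + PBS, and 5 to 14 for ZnSO4 + PBS against water + Dex (5 without water + Dex replicate 1, 6 without ZnSO4 + PBS replicate 2).

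Small LFCs that were not called changed sign when 1 library was left out. Their ranges were -0.0939 to 0.0632 (Isx, ZnSO4 in PBS mice), -0.23 to 0.0059 (Isx, Dex in ZnSO4 mice), -0.0218 to 0.29 and -0.10 to 0.33 (Rbp2, ZnSO4 in PBS and in Dex mice), -0.0943 to 0.17 (Lrat, Dex in water mice), -0.17 to 0.13 (Aldh1a1, Dex in ZnSO4 mice), -0.28 to 0.0111 (Aldh1a2, ZnSO4 in PBS mice) and -0.60 to 0.0437 (Cyp26b1, ZnSO4 in Dex mice).

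The labels number mice 1 to 3 in each group. Deviations from the group means of mice with the same number had a median correlation of -0.06 over 18 pairs, beside 0.02 over 36 pairs with different numbers, and 4 of 12 libraries correlated best with their own number, so the numbers were not taken as a pairing. With the replicate number as a block, 4, 3, 3 and 2 of the genes were called for ZnSO4 in PBS mice, Dex in water mice, ZnSO4 in Dex mice and Dex in ZnSO4 mice, where Aldh1a1 was gained (adjusted p = 0.0243 with Dex in water mice and 0.03 with ZnSO4 in Dex mice).

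Depth limited Rarb (at most 15 reads per library) and Adh4 (at most 33). For Cyp26b1, at 34 to 122 reads per library, the limit was the spread between mice.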
